A study of Homo sapiens with 4 samples.

Results

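The genes described here are the transcriptional coactivators YAP (YAP1) and TAZ (WWTR1), their DNA-binding partner TEAD1, and 6 genes known as their targets, AMOTL2, LATS2, CYR61, CTGF, ANKRD1 and AXL. They were chosen by name, with no measured value in the rule, and are 9 of the 19577 genes listed in the count tables. CYR61 and CTGF are the symbols of the files for CCN1 and CCN2. All cells were MCF10A, an untransformed human mammary epithelial cell line, carrying H2B-GFP, of which 10000 were seeded as a circular patch on fibronectin and cultured for 6 days in medium with 5% equine serum, insulin at 10 μg/ml, cholera toxin at 100 ng/ml, EGF at 20 ng/ml and hydrocortisone at 500 ng/ml. In the 2 low-resolution patches, 3 concentric rings of 1000 to 1500 μm were fitted, and the outer and middle rings were phototagged before sorting. In the 2 high-resolution patches, the outermost 250 μm, the next 250 μm and the inside were told apart by phototagging the outermost and the next band. Each patch gave 1 plate of 384 wells, with 1 sorted cell per well, and the plate is the replicate. Which region a well came from is not used here, so every value is for a whole plate, and the mixture of regions sorted onto a plate cannot be told apart from the experiment it belongs to.

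YAP and TAZ are held in the cytoplasm when the Hippo kinases, including LATS2, phosphorylate them, and enter the nucleus when cells are spread, stretched or at low density. In the nucleus they bind TEAD factors and raise the transcription of genes for secreted matricellular proteins such as CTGF and CYR61, of the receptor tyrosine kinase AXL, and of their own inhibitors LATS2 and AMOTL2. Their activity is set largely by protein location and stability, which transcript counts do not measure, and in mammary epithelium they are known for their part in migration and in the epithelial-to-mesenchymal transition (EMT).

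TEAD factors recognize the letters GGAATG, which read CATTCC on the other strand, and this motif was searched on both strands in the 250 bases before each annotated start site in RefSeq (build GRCh38.p14). The letters were found before at least 1 start of 5 of the 7 genes with an entry, and in 11.9% of all 35116 such stretches. The count is by gene, some with 2 listed starts, and the share is by stretch, so they are not alike. CTGF held 3 copies, the nearest at 95 bases before its start, and 0.0826% of all stretches held 3 or more. ANKRD1 held 2, and 0.94% of all stretches held 2 or more. YAP1, AMOTL2 and AXL had 1 copy each, AMOTL2 and AXL before the second of 2 listed starts, while the stretches of WWTR1 and LATS2 had none. A match is a description of the sequence and was not tested as a binding site. The stretches of 4 target genes are shown 5′ to 3′ along the gene, with the motif in capitals, because the results turn on the relations of CTGF, AMOTL2 and AXL between cells and on ANKRD1, which was hardly detected. They lie at chr6:131951373-131951622 (minus strand) for CTGF, chr3:134374448-134374697 (minus) for AMOTL2, chr19:41226505-41226754 (plus) for AXL and chr10:90921088-90921337 (minus) for ANKRD1.
CTGF: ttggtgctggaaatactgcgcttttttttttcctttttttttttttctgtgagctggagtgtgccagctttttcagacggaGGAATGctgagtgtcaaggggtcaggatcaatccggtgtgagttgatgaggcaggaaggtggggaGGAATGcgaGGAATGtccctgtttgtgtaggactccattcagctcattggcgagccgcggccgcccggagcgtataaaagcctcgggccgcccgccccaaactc
AMOTL2: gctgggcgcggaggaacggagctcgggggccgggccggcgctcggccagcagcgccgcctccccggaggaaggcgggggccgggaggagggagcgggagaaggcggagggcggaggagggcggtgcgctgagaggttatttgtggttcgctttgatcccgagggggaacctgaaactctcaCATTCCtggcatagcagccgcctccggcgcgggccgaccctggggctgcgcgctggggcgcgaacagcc
AXL: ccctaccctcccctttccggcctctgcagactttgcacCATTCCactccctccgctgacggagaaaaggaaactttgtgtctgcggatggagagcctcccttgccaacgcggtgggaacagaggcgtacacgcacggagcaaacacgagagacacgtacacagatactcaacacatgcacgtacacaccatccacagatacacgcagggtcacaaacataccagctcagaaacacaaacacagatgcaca
ANKRD1: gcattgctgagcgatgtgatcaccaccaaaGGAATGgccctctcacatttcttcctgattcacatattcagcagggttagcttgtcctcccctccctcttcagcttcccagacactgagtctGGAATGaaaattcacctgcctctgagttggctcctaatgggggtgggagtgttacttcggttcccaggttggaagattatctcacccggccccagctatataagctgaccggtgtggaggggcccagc

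The 4 plates held between 11709628 and 14992348 transcripts. The thresholds that the study states, applied here to the deposited tables, kept 1146 of 1536 wells, with 562 cells in the low-resolution and 584 in the high-resolution plates. The study analysed more cells in each experiment, also more than are left here without the mitochondrial limit, and the reason is not given in the sources used here. The median cell had 30118 and 33283 transcripts at low resolution against 35409 and 40893 at high resolution. Transcripts are distinct UMIs (random tags that mark single molecules), and a level is the sum over the cells of a plate per 10000 transcripts. Of 9 markers of the cell line, 8 were detected in 20% or more of the cells on each plate, while TP63 was detected in 2.58% to 4.12%. The immune, endothelial and fibroblast lists summed to at most 0.486, 0.214 and 0.132 transcripts per 10000, against at least 34.3 for the epithelial list. The defining markers PTPRC and CDH5 had at most 5 and 2 UMIs in a plate, whereas CD14 and PECAM1 were seen in 36.9% to 59.8% and 28.5% to 47.1% of cells. By the file names, low-resolution replicate 1 seems to have been on another flow cell than the other 3 plates, which no label states. It stood apart in several relations below, which are therefore given with and without it.

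The transcript levels of the coactivators and of TEAD1 overlapped between the experiments, while 3 target genes were more than 2-fold higher in the high-resolution plates. YAP1 was at 0.599 and 0.514 transcripts per 10000 in the low-resolution replicates 1 and 2, and at 0.480 and 0.531 in the high-resolution replicates. WWTR1 was at 0.402 and 0.342 in the low-resolution plates and at 0.377 and 0.415 in the high-resolution plates. TEAD1 was at 0.985 and 0.890, and at 0.953 and 0.886, in the same order. The plates of both experiments overlapped for all 3 genes. In edgeR's quasi-likelihood test on plate sums, the log2 difference of high from low resolution was -0.10 ± 0.12 (SE) for YAP1, 0.13 ± 0.13 for WWTR1 and 0.01 ± 0.11 for TEAD1, with adjusted p of 0.642, 0.576 and 0.977. A p above the threshold does not show that their levels were alike.

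The secreted matricellular proteins CTGF and CYR61 and the receptor AXL passed that test. CTGF was at 1.46 and 1.53 transcripts per 10000 in the low-resolution plates against 3.74 and 2.55 at high resolution. CYR61 was at 0.627 and 0.499 against 1.51 and 1.01. AXL was at 0.419 and 0.375 against 0.908 and 0.954. For each of the 3, both high-resolution plates lay above both low-resolution plates. The log2 difference was 1.11 ± 0.16 (SE) for CTGF (2.15-fold, edgeR adjusted p = 0.00117), 1.2 ± 0.18 for CYR61 (2.30-fold, adjusted p = 0.00131) and 1.27 ± 0.12 for AXL (2.41-fold, adjusted p = 0.000125). These were 3 of the 8 genes that passed the filter on low counts. Of all 12437 genes tested, 12.4% were called in either direction and 6.26% were called higher in the high-resolution plates. Without low-resolution replicate 1, the log2 differences were 1.04, 1.34 and 1.31. That fit leaves 1 low-resolution plate, so no p is given for it.

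The feedback regulators behaved less uniformly. AMOTL2, an angiomotin that binds YAP, was at 1.29 and 1.35 transcripts per 10000 in the low-resolution plates and at 1.73 and 1.56 in the high-resolution plates. LATS2, a kinase of YAP and TAZ, was at 0.517 and 0.608 against 0.580 and 0.576. The plates did not overlap for AMOTL2 and overlapped for LATS2. For AMOTL2 the log2 difference was 0.35 ± 0.11 (SE) with an edgeR adjusted p of 0.0634, and with the replicate number as a block it was 0.35 with an adjusted p of 0.0454. For LATS2 it was 0.07 ± 0.13 (edgeR adjusted p = 0.773). With AMOTL2, 4 of the 9 genes had both high-resolution plates above both low-resolution plates, as did 29.2% of all genes tested. The plot of levels by plate shows the 8 genes that were measurable.

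**Figure D1:**
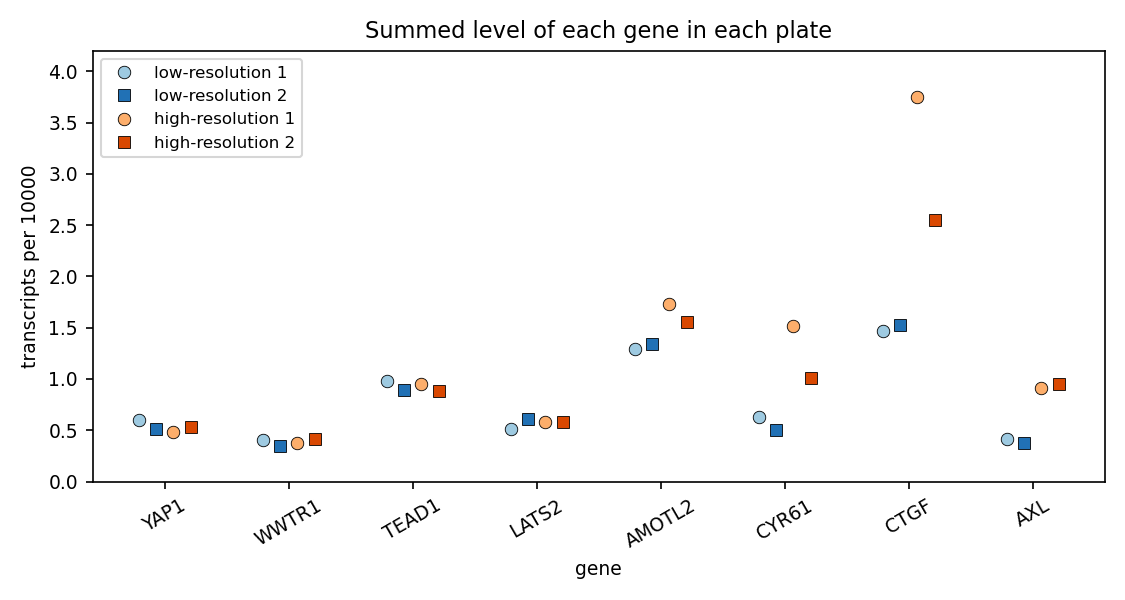
Transcripts per 10000 (vertical axis, from 0) summed over the cells of each of the 4 plates for 8 genes, 1 point per plate, blue for low and orange for high resolution. The orange points lie above the blue ones for AMOTL2, CYR61, CTGF and AXL, and the colours are mixed for YAP1, WWTR1, TEAD1 and LATS2. ANKRD1, with at most 3 UMIs in a plate, is left out, and levels are not to be compared between genes.

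ANKRD1, an ankyrin repeat protein widely used as a readout of YAP activity, was almost undetected. It had 1 and 3 UMIs at low resolution and 3 and 2 at high resolution, each in a different cell, or 9 UMIs in 1146 cells. The exact 95% binomial interval of the share of cells with a UMI reached from 0.0087% to 1.90% in low-resolution replicate 1 and from 0.229% to 3.20% in replicate 2. No difference between plates was detectable at this depth, and the gene did not enter the test.

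The share of cells with a UMI moved in the same way as the level. After every cell was thinned to 10000 UMIs to remove differences in depth, AXL was seen in 20.2% and 21.6% of cells of the low-resolution plates and in 48.2% and 46.4% of the high-resolution plates. Unthinned, the shares were 36.8%, 38.4%, 65.6% and 68.3%. CYR61 was seen in 34.1% and 31.7% of thinned cells against 59.9% and 46.7%, and CTGF in 50.9% and 47.8% against 73.2% and 68.7%. Both high-resolution plates were again above both low-resolution plates for all 3 genes. YAP1 was seen in 37.7% to 46% of thinned cells and WWTR1 in 28% to 37.5%, with plates of both experiments mixed.

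Of the target genes, CTGF, CYR61, AXL and AMOTL2 were more unevenly spread between cells of a plate than YAP1, WWTR1 and TEAD1, and LATS2 was not. The Fano factor (variance over mean) of thinned UMIs was 4.31 to 5.67 for CTGF, 2.00 to 3.43 for CYR61, 1.95 to 2.58 for AXL and 1.58 to 2.33 for AMOTL2. For YAP1 it was 0.845 to 1.23, for WWTR1 0.994 to 1.13, for TEAD1 1.26 to 1.41 and for LATS2 1.13 to 1.41, and the median of 8032 genes was 1.11 to 1.13. A Fano factor rises with the mean, so these values are given as a description. For CTGF, the 10% of cells with the most UMIs held 39.6% to 57.1% of its UMIs, with up to 99 UMIs in 1 cell, whereas for YAP1 they held 27.2% to 32.6%.

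Relation to EMT was measured within each plate as Spearman's rho over cells between the level of a gene and an EMT score, the enrichment of a mesenchymal gene list minus that of an epithelial list. This coefficient is a description of a plate, with no p, since cells are not replicates. The scale of these values is given by the markers, with a mean rho of -0.72 ± 0.028 (SD, n = 4 plates) for the epithelial cadherin CDH1, -0.72 ± 0.067 for the adhesion molecule EPCAM, 0.59 ± 0.11 for the intermediate filament VIM and 0.74 ± 0.016 for fibronectin, FN1. WWTR1 is itself on the mesenchymal list and was set against a score computed without it, as were these 4 markers.

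AXL followed the score closely in every plate, and it was the 1 gene of the 9 to reach a rho of 0.3 in all 4 plates. In the low-resolution plates its rho was 0.556 and 0.642, against 0.634 and 0.672 at high resolution. Of 7959 genes outside the lists, 2.32% reached 0.3 in all plates and 2.41% reached -0.3. AXL fell with CDH1 (mean rho -0.45) and EPCAM (-0.41), and rose with VIM (0.52) and FN1 (0.48). It also moved against the mitochondrial share of the cell, with rho of -0.30 to -0.56, and with the G2/M score, at 0.21 to 0.45. Beyond a partial rho given the S and G2/M scores, the part of these measures in its relation to EMT was not tested. Under that partial rho, AXL was again the 1 gene of the 9 that reached 0.3 in all plates. The share of all genes under it is not given here.

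CTGF and CYR61 followed the score in the high-resolution plates but not in every low-resolution plate. For CTGF, low-resolution replicates 1 and 2 had a rho of 0.067 and 0.401, against 0.568 and 0.582 at high resolution. CYR61 was at 0.110 and 0.210 against 0.566 and 0.417. AMOTL2 ran from -0.154 in low-resolution replicate 1 through 0.150 in replicate 2 to 0.344 and 0.302. For all 3 genes, low-resolution replicate 1 was the lowest plate and both high-resolution plates were the highest. The share of all genes with this order was not counted, and the 3 genes were related to each other, so they are not separate observations. Without replicate 1, the mean rho over 3 plates was 0.52 ± 0.10 (SD) for CTGF, 0.40 ± 0.18 for CYR61 and 0.27 ± 0.10 for AMOTL2, and CTGF joined AXL past 0.3 in all 3 plates, as did 2.8% of all genes. Whether the experiments differ in these relations was not tested.

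The coactivators had weaker relations to the score. YAP1 had a rho of 0.041, -0.010, 0.101 and 0.101 in the 4 plates in the same order. WWTR1 was at 0.258, 0.194, 0.283 and 0.234, and TEAD1 at 0.253, 0.347, 0.316 and 0.260. LATS2 was at 0.113, 0.199, 0.288 and 0.250. So TAZ and TEAD1 transcripts were positively related to the score in every plate, and YAP1 was near 0 in all of them. The median over the 9 genes was 0.242, against 0.0169 over all genes. The rho of ANKRD1, at most 0.10, rests on 1 to 3 cells with a UMI and is no finding. The plot of rho by plate shows the spread.

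**Figure D2:**
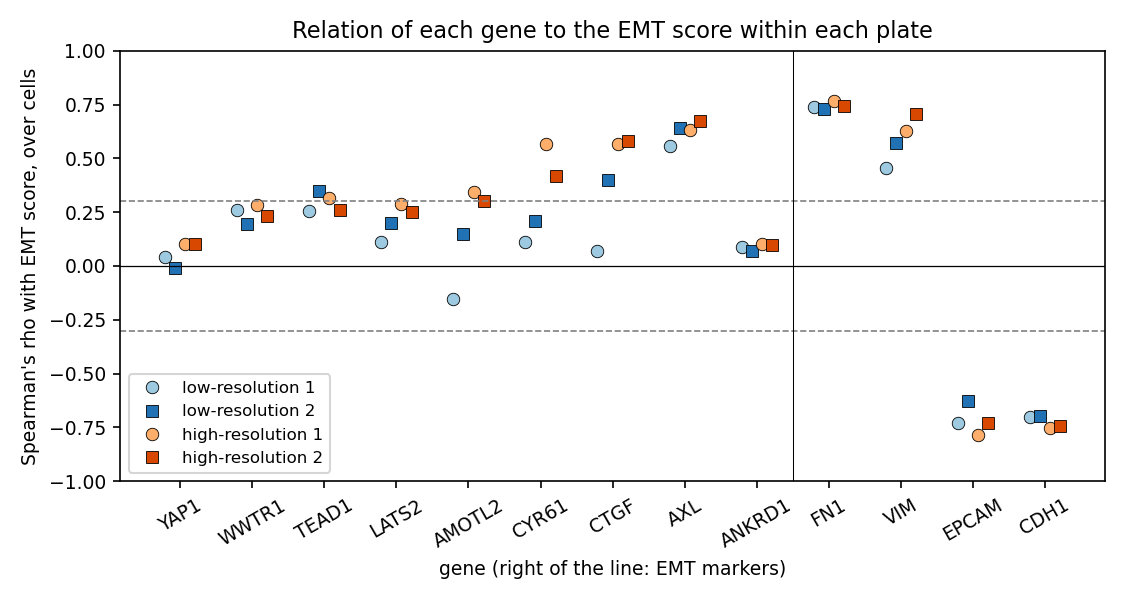
Spearman's rho over cells between the level of a gene and the EMT score (vertical axis), with 1 point per plate for the 9 genes and, right of the vertical line, 4 EMT markers. Dashed lines mark 0.3 and -0.3. AXL lies above 0.3 in all 4 plates, YAP1 near 0, and CTGF, CYR61 and AMOTL2 are lowest in low-resolution replicate 1.

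Spearman's correlation over cells is drawn towards 0 in sparse genes, so the cells of a plate were also split by EMT score into 3 groups of equal size, and levels were summed over the low-score, middle-score and high-score cells. The log2 difference of high-score from low-score cells reached 0.5 in all 4 plates for 4 of the 8 genes that could be measured, AXL, CYR61, WWTR1 and TEAD1, and so did 8.18% of all genes. None of the 8 reached -0.5 in all plates, as 6.78% of all genes did. AXL rose from 0.0819 to 1.03 transcripts per 10000 in low-resolution replicate 1 and from 0.0243 to 0.906 in replicate 2. In the high-resolution replicates it rose from 0.156 to 1.73 and from 0.182 to 1.62. The mean log2 difference of AXL was 3.88 ± 0.92 (SD, n = 4 plates), or 14.7-fold. It was 0.89 ± 0.14 for WWTR1 (1.85-fold), 0.81 ± 0.21 for TEAD1 (1.75-fold) and 0.21 ± 0.18 for YAP1.

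Low-resolution replicate 1 again set CTGF apart. There CTGF was at 1.45 transcripts per 10000 in the low-score cells and 1.60 in the high-score cells, a log2 difference of 0.15. In low-resolution replicate 2 it went from 0.560 to 3.13 (2.48), and in the high-resolution replicates from 1.26 to 6.86 (2.45) and from 0.961 to 5.07 (2.40). These 3 plates thus lay within 0.1 of each other on the log2 scale, with low-resolution replicate 1 far below them. AMOTL2 had log2 differences of -0.21 in low-resolution replicate 1 and 0.69, 0.97 and 0.95 in the others, and CYR61 of 0.73, 1.47, 2.54 and 2.13. Without replicate 1, 7 of the 8 genes, all but YAP1, were past 0.5 in the 3 plates, as were 9.11% of all genes.

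The levels within the score groups were also set side by side between the experiments. In high-score cells, CTGF was at 1.60 and 3.13 transcripts per 10000 in the low-resolution plates and at 6.86 and 5.07 in the high-resolution plates, so these did not overlap. In middle-score cells CTGF was at 1.34 and 1.05 against 3.53 and 1.63, again with no overlap. In low-score cells it was at 1.45 and 0.560 against 1.26 and 0.961, and the plates overlapped. CYR61 showed the same order, with 0.808 and 0.837 against 2.90 and 1.91 in high-score cells. It was at 0.609 and 0.386 against 1.30 and 0.677 in middle-score cells, and the plates did not overlap. In low-score cells they overlapped, at 0.486 and 0.303 against 0.498 and 0.435. AXL did not overlap between experiments in the high-score, middle-score (0.184 and 0.248 against 0.975 and 1.04) or low-score cells. The groups were set within each plate, so the same group need not hold the same range of scores. No test was made of these values, and the share of all genes whose plates did not overlap within a group was not counted. On whole-plate sums, 29.2% of all genes tested had both high-resolution plates above both low-resolution plates.

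**Figure D3:**
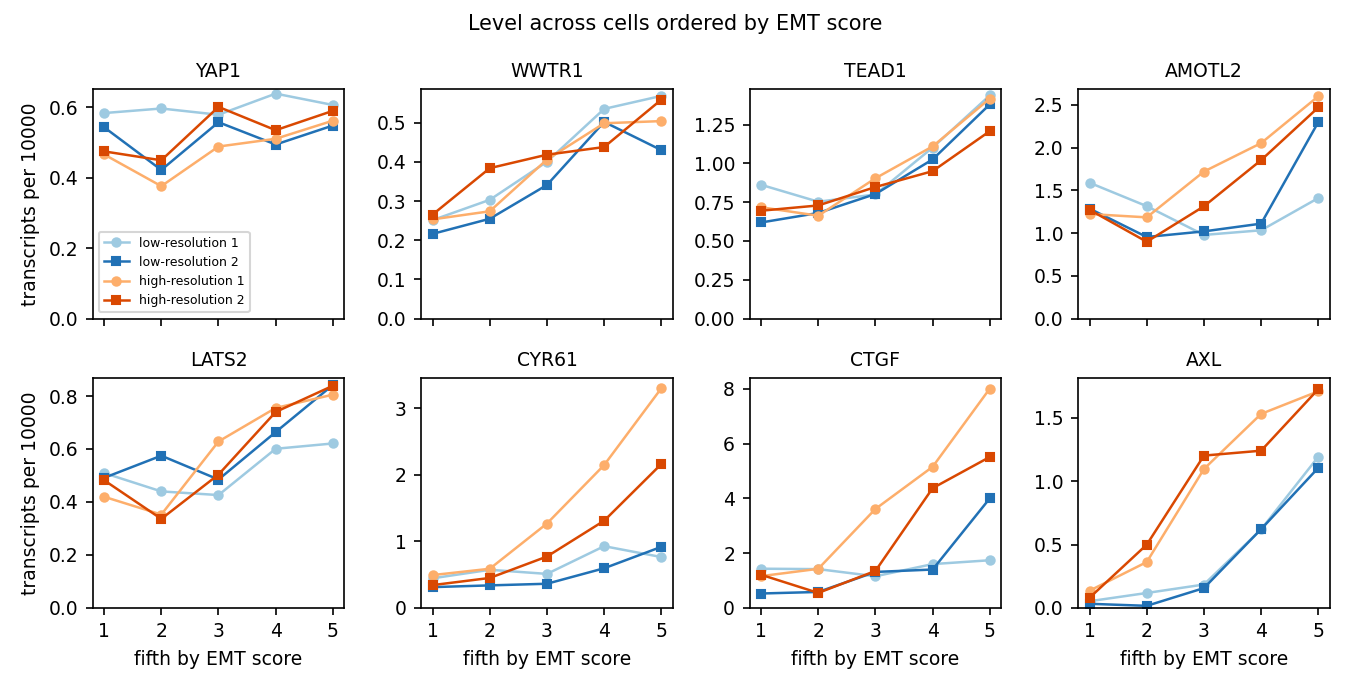
Transcripts per 10000 (vertical axes, from 0, a scale for each gene) in cells of each plate split by EMT score into groups of equal size, 5 per plate (horizontal axis, 1 the lowest). AXL, WWTR1, TEAD1, CYR61, CTGF and LATS2 are higher in the last than in the first group of every plate, and YAP1 changes little. AMOTL2 is lower in the last than in the first group of low-resolution replicate 1. For CTGF, the line of that plate rises little where the other plates rise steeply.

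Between the genes, one group stood out, made of CTGF, CYR61 and AMOTL2. For CYR61 with CTGF, rho over cells was 0.307 and 0.394 at low resolution against 0.679 and 0.496 at high resolution. AMOTL2 with CYR61 was at 0.211, 0.352, 0.492 and 0.424. AMOTL2 with CTGF was at 0.196, 0.415, 0.487 and 0.428. The first 2 of these pairs reached 0.2 in all plates, and the last missed it in low-resolution replicate 1 alone. These were 2 of the 36 pairs of the 9 genes, and 0.501% of all 32252496 pairs of 8032 genes reached 0.2 in all plates. Among the 8032 genes, CTGF had the highest mean rho with CYR61 and CYR61 the highest with CTGF, while CTGF and CYR61 were first and second for AMOTL2.

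Over all 4 plates few other genes reached this limit with CTGF or CYR61, and that count rests on low-resolution replicate 1. Beside CYR61, the 1 gene that reached 0.2 with CTGF in all 4 plates was MCL1, an inhibitor of apoptosis named here after its values were seen, with rho of 0.216 to 0.403. Beside CTGF and AMOTL2, the 1 gene that did so with CYR61 was ANXA5, a phospholipid-binding annexin, at 0.204 to 0.375. Those counts are 0.0249% and 0.0374% of 8031 genes, and 5.65% reached 0.2 with AXL. Without low-resolution replicate 1, an alternative chosen after seeing the data, 1.33% of the 8031 genes reached 0.2 with CTGF in the other 3 plates, 0.311% with CYR61 and 7.47% with AXL. THBS1, the matricellular protein thrombospondin, was next after the other 2 genes of this group for both AMOTL2 (0.27 ± 0.13, SD, n = 4 plates) and CYR61 (0.32 ± 0.11), and FN1, at 0.38 ± 0.22, was as near to CTGF as AMOTL2 (0.38 ± 0.13). In that plate, FN1 was at 0.126 with CTGF, against 0.283 to 0.589 in the others.

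The cells with the highest levels of 2 genes were also compared, where 10% shared is what unrelated genes would give. Of the 10% of cells with the most CTGF, 8 of 30 and 11 of 28 at low resolution were also among the 10% with the most CYR61, as were 18 of 30 and 15 of 30 at high resolution. For CTGF and AMOTL2 the numbers were 3 of 30 and 14 of 28, then 6 of 30 and 12 of 30. For CTGF and AXL they were 2 of 30 and 10 of 28, then 2 of 30 and 4 of 30. In low-resolution replicate 2 the overlap of CTGF with AXL was thus close to that with CYR61, while in both high-resolution plates it was lower, and these differences were not tested.

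The genes nearest to AXL had higher values than those nearest to CTGF or CYR61. Its 3 nearest genes were NT5E, the ecto-nucleotidase CD73, with a mean rho of 0.68 ± 0.085 (SD, n = 4 plates) and itself on a YAP/TAZ target signature, ANXA5 (0.65 ± 0.083) and the membrane protein EMP3 (0.65 ± 0.042), which is on the mesenchymal list. WWTR1 and TEAD1 had mean rho of 0.25 with AXL and of 0.14 and 0.16 with CTGF, with SDs over plates of 0.041 to 0.097, and the difference was not tested. WWTR1 was nearest to NT5E (0.27), ACTN1 (0.26) and AXL, and TEAD1 to ANXA5 (0.32), ASPH and FLNA (0.29 each). ACTN1 and FLNA cross-link actin filaments. LATS2 was nearest to the kinase ABL2 (0.28), CTGF (0.27) and the integrin subunit ITGB1 (0.26). YAP1 had no close partner, since its 3 nearest genes, KIF5B, KLHL7 and CALU, were at 0.13 each.

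When the EMT score was held fixed by a partial rho, CTGF, CYR61 and AMOTL2 were still related to each other, whereas rho of AXL with CTGF was near 0. CYR61 with CTGF went from a mean of 0.47 to 0.38, with 0.302 to 0.525 over plates. AMOTL2 with CTGF went from 0.38 to 0.33, and AMOTL2 with CYR61 from 0.37 to 0.32, so that all 3 pairs reached 0.2 in every plate. AXL with CTGF went from 0.22 to -0.06 and AXL with CYR61 from 0.23 to 0.03. Over the 28 pairs of the 8 genes other than ANKRD1, the median was 0.141, and given the score it was 0.0627. The median over all gene pairs, with no adjustment, was 0.0199. The share of all gene pairs that reached 0.2 in every plate given the score was not counted, so the 3 pairs have no base under it. In thinned cells, CYR61 with CTGF had a mean rho of 0.34 with 0.149 in its lowest plate, and no pair reached 0.2 in every plate.

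Low-resolution replicate 1 limited these counts. Without it, 9 of the 36 pairs reached 0.2 in the other 3 plates, against 0.628% of all gene pairs. Among the 9 were CTGF with AXL, at -0.005 in replicate 1 and 0.287, 0.287 and 0.306 elsewhere, and LATS2 with CTGF, at 0.167 and then 0.220, 0.386 and 0.319. No pair was negative in all plates, and 23 of the 36 were positive in all of them. The share of all gene pairs that kept the same sign was not counted, so these numbers have no base to be read against.

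**Figure D4:**
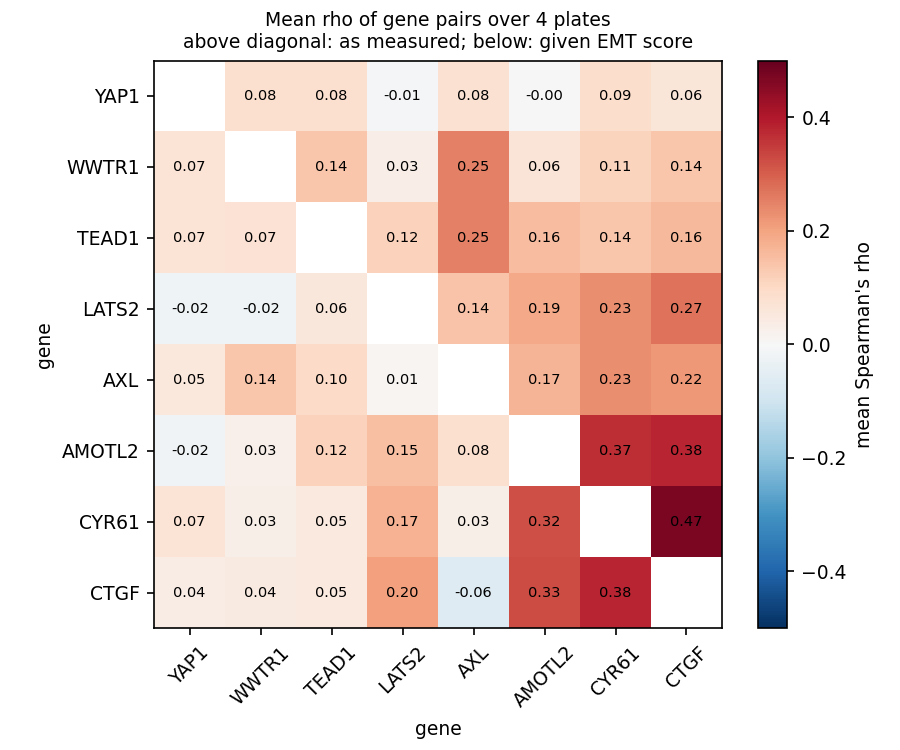
Mean Spearman's rho over the 4 plates for each pair of 8 genes, with rho as measured above the diagonal and partial rho given the EMT score below it. AMOTL2, CYR61 and CTGF form the red corner at the lower right on both sides, while the cell of AXL with CTGF goes from 0.22 to -0.06.

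The rest of the Hippo pathway had members on both sides of the EMT score. Of 20 further kinases and regulators, 1 reached a rho of 0.3 in all plates and 1 reached -0.3, beside 2.32% and 2.41% of all genes. In every plate 6 were positive and 5 negative, and the share of all genes that kept the same sign was not counted. Between high-score and low-score cells, 3 (FRMD6, MAP4K4 and WTIP) were past a log2 difference of 0.5 in all plates and 2 (WWC1 and STK3) past -0.5, of 19 with a value, beside 8.18% and 6.78% of all genes. MAP4K4, a kinase that can act on LATS, had a mean log2 difference of 0.96 ± 0.22 (SD, n = 4 plates) and STK3, the kinase MST2, of -1.07 ± 0.43, and with WTIP they are named after their values were seen. FRMD6, a FERM-domain protein of the upstream pathway, had a mean rho of 0.61 ± 0.068 (SD, n = 4 plates) and was 7.84-fold higher in high-score than in low-score cells, at 1.58 to 1.95 against 0.127 to 0.280 transcripts per 10000. WWC1, the scaffold KIBRA that activates LATS kinases, had a mean rho of -0.43 ± 0.022 and was at 0.0781 to 0.162 against 0.344 to 0.560. FRMD6 and WWC1 thus moved in opposite directions along the score in every plate. Nearest to 0 were NF2 and WWC2, each at -0.01.

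Of 6 further TEAD factors and their cofactors, VGLL1, a cofactor that competes with YAP and TAZ for TEAD, was the 1 that reached -0.3 in all plates (-0.44 ± 0.067), and none reached 0.3. TEAD4 (-0.01) and VGLL4 (-0.07) were nearest to 0. VGLL1 was at 0.187 to 0.303 transcripts per 10000 in low-score cells and at 0.00807 to 0.0157 in high-score cells. The high-score values rest on 3 to 5 UMIs in a plate. Of 16 other genes of a YAP/TAZ target signature, 3 reached 0.3 and none reached -0.3. These were NT5E (0.69 ± 0.069), the GTPase-activating protein ASAP1 (0.46 ± 0.046) and the transmembrane protein CRIM1 (0.39 ± 0.065), while MYOF (-0.01) and PTPN14 (0.02) were nearest to 0. All 3 also reached 0.2 with AXL in every plate, as did 5.65% of 8031 genes. They were picked by their rho with the score, which AXL also followed, so this is no separate result. Given the score, the mean rho with AXL was 0.45 for NT5E, 0.12 for ASAP1 and 0.06 for CRIM1. None of the 16 reached 0.2 with CTGF over all 4 plates, while NT5E and CRIM1 did without low-resolution replicate 1. NT5E with CTGF was at 0.093 in that plate and at 0.303, 0.345 and 0.333 in the others, and CRIM1 at 0.104 and then 0.252, 0.370 and 0.410. The plot of pathway genes beside AXL and CTGF shows the lists together.

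**Figure D5:**
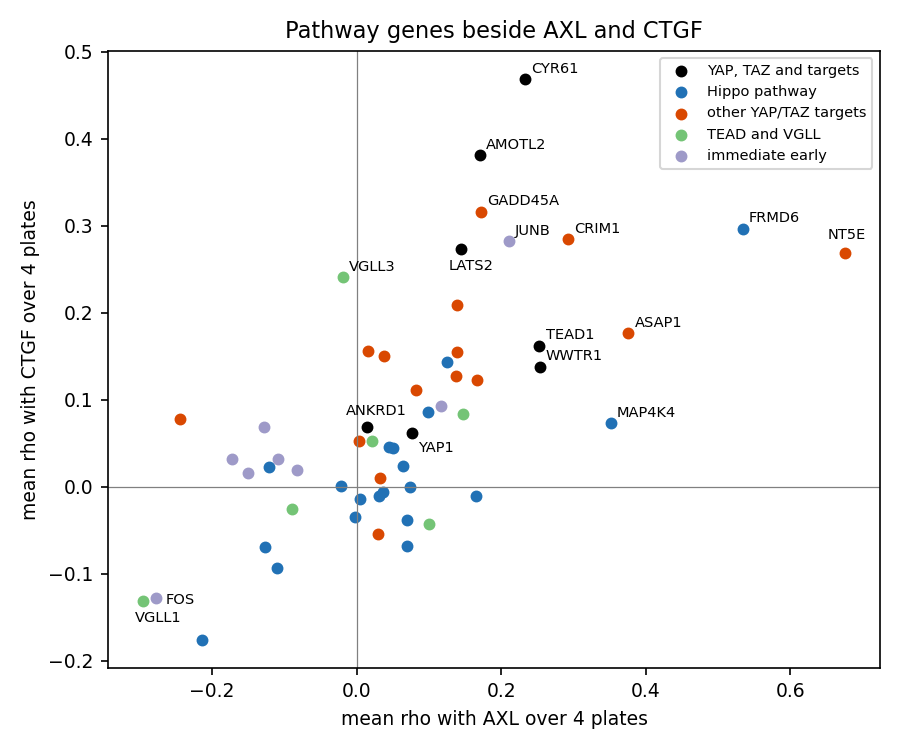
Mean rho over 4 plates with AXL (horizontal axis) and with CTGF (vertical axis) for the genes of 5 lists, 1 point per gene. CYR61 and AMOTL2 lie highest, NT5E, FRMD6, ASAP1 and MAP4K4 far to the right, and YAP1 and ANKRD1 near the origin. NUAK2, with no UMI in the kept cells of low-resolution replicate 1, has no mean with CTGF or AXL and is not drawn.

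Between the experiments, most genes of these lists did not pass the test. Of the 20 Hippo genes, the scaffold SAV1 was called higher in the high-resolution plates (log2 difference 0.48 ± 0.14, SE, edgeR adjusted p = 0.0458) and WWC1 lower (-0.69 ± 0.14, adjusted p = 0.00784), and 18 did not pass, so that the counts are near those over all genes. None of the 6 TEAD and VGLL genes passed. Of the 15 signature genes tested, 3 were higher (NT5E, GADD45A and CRIM1) and 2 lower (IGFBP3 and FOXF2), and their median log2 difference was -0.04 against -0.02 over all genes. NT5E was at a log2 difference of 1.16 ± 0.11 and IGFBP3, which binds insulin-like growth factors, at -1.31 ± 0.17. The genes called lower are read against 6.18% of all genes tested. FOXF2, GADD45A and SAV1 are named after their values were seen, as is IGFBP3.

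Other measures moved with the experiments beside CTGF, CYR61 and AXL, and their part in the result was not tested. VIM and FN1 were higher in the high-resolution plates, by log2 differences of 0.94 ± 0.13 (SE) and 0.77 ± 0.11, and CDH1 was lower, at -0.68 ± 0.12, with edgeR adjusted p of 0.00117, 0.00127 and 0.00321. EPCAM was at -0.11 ± 0.11 (edgeR adjusted p = 0.566). Of 8 immediate early genes, which respond quickly to serum and handling, JUNB, EGR1 and IER2 were called higher and none lower. Of all genes tested, 6.26% were called higher and 6.18% lower. In single cells, none of the 8 reached a rho of 0.3 or -0.3 with the EMT score in all plates, with ATF3 (0.01) and DUSP1 (-0.07) nearest to 0. The rho of CTGF with the summed immediate early score was 0.025 to 0.189 and that of CYR61 0.073 to 0.234. Single genes of the list differed from the sum. JUNB, a subunit of the AP-1 factor, had a rho with CTGF of 0.094 and 0.181 at low resolution against 0.448 and 0.406 at high resolution, and with CYR61 of 0.074 and 0.184 against 0.432 and 0.274. Between high-score and low-score cells, JUNB was past a log2 difference of 0.5 in all plates (mean 1.00 ± 0.30, SD, n = 4) and FOS, another AP-1 subunit, past -0.5 (-1.43 ± 0.63). JUNB, EGR1, IER2 and FOS are named after their values were seen.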

How the data were processed

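SORT-seq, a plate-based single-cell RNA-seq method with UMIs, was run on 4 plates, 2 low-resolution and 2 high-resolution, grouped by their titles. The authors deposited 1 table per plate of expected counts per gene and well, in which observed UMIs were corrected for UMIs drawn more than once. All 7245730 values above 0 were within 1e-06 of the value of a whole number of 4096 possible UMIs. Submitters' processing notes name STAR 2.7.3a, Seurat 4 and hg38.

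Wells with 2000 to 9000 genes and under 40% mitochondrial transcripts were kept, spike-ins were left out, and cells were log-normalized to 10000. The EMT score is a GSVA score recomputed here per experiment from 64 of 65 epithelial and 103 of 115 mesenchymal genes. Relations were called at a rho of 0.3 with the score, 0.2 between genes or a log2 difference of 0.5, in all 4 plates, with as background the 8032 genes having a UMI in 20% of cells or more per plate (7959 outside the EMT lists). Plate sums, rounded to whole numbers, were tested with edgeR 4.0.16 (R 4.3.3, quasi-likelihood, TMM, filterByExpr, Benjamini-Hochberg threshold 0.05). Scripts ran in Python 3.11.15 and were tested on simulated data. Intervals are exact (Clopper-Pearson) and cover counting error only.

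The genes and lists were chosen with earlier results of these data known. Named genes are the 9, the 3 nearest to each by mean rho, the genes of each list past a limit with the score, and those nearest to 0. No label says how far replicate patches were independent, so p-values measure the spread between these plates. Alternatives were DESeq2 1.42.0, other size factors, no filter, a replicate block, thinning, other scores and limits, partial rho, mitochondrial settings and leaving out each plate.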

Additional observations from a re-analysis of the deposited data

Results flagged for a closer look

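Of 53 relations searched, 2 had one sign in both low-resolution plates and the other sign in both high-resolution plates, and the differences were not tested. The correlation of YAP1 with LATS2, its kinase, was -0.0890 and -0.0544 at low resolution against 0.0249 and 0.0968 at high resolution, a difference of 0.133 between the means. The correlation of ANKRD1 with AXL was 0.0687 and 0.0517 against -0.0463 and -0.0189, a difference of -0.0928, and rests on 9 UMIs of ANKRD1. All of these values are small.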

How the results depend on the processing

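AXL, CTGF and CYR61 were called under every alternative that kept all 4 plates. The direction of these 3 genes did not reverse, also without each plate in turn. Reversals were not searched for in the genes that were not called. Leaving out a plate leaves 1 plate in its experiment, so calls from those fits are not counted here. Over all genes, 1547 were called, and 1050 by DESeq2. AMOTL2 (edgeR adjusted p = 0.0634) passed without the filter on low counts (0.0402). With the replicate number as a block, 4 of the 9 genes were called, AMOTL2 among them. The deviations of same-numbered plates had a correlation of -0.0237 over 12437 genes. This is a single comparison, in which low-resolution replicate 1 was also on another flow cell by the file names. It cannot show whether same-numbered plates shared a batch. The count of genes following the EMT score was 1, and 2 at a limit of 0.2, with 1 to 2 without a plate. The count that differed between low-score and high-score cells was 4, and 1 at a log2 limit of 1, with 4 to 7 without a plate. The count of pairs was 2, and 0 in thinned cells, 7 at a limit of 0.1 and 1 at 0.3, with 2 to 9 without a plate. The share of genes reaching 0.2 with CTGF was 0.0249%, and 1.33% without low-resolution replicate 1, and with CYR61 0.0374% and 0.311%. The highest value of the last 3 ranges is without low-resolution replicate 1, whose flow cell, read from the file names, cannot be told apart from the plate. The median rho of pairs was 0.141, and 0.0787 in thinned cells and 0.0627 given the score. The correlation of genes seen in few UMIs is limited by depth, as the thinned values show for pairs.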
